A study of Homo sapiens with 36 samples.

Results

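The ATP-binding cassette (ABC) transporter family was examined in 3 human carcinoma lines that carried hairpins or guides against 1 gene. Its members were taken as every symbol in the count table made of the letters ABC, a subfamily letter from A to G and a number, and 46 of 26475 symbols met that rule. Counts of members are over 44 of them. The rule leaves out family members that carry other names, such as the peptide transporters TAP1 and TAP2, which are given with the pathway genes.

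Poly-A RNA was sequenced from 36 libraries in 12 arms of 3 biological replicates each. Hairpins were carried on the lentiviral vector pGIPZ in WiDr (colorectal carcinoma), MDA-MB-468 (basal-like breast carcinoma) and PANC-1 (pancreatic carcinoma), each with a non-silencing control (pGIPZ-NS) and 2 targeting hairpins (pGIPZ-#1 and pGIPZ-#2). Guide RNAs were used in WiDr alone, with a non-targeting control (NT-1) and 2 targeting guides (sgRNA#1 and sgRNA#2). All cells were grown in DMEM with serum. The labels do not say whether a line was a clone or a pool, or which nuclease the guide cells carried. The guide arms were taken from the sample titles, because for 4 of the 6 targeting guide libraries a second label field names the other guide. The targeted transcript was lower than in every control library in 7 of the 8 targeting arms. The exception was pGIPZ-#2 in PANC-1, whose libraries overlapped the control libraries in this transcript. Their label is not borne out by it, and they are called labelled hairpin 2 throughout.

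ABC proteins bind and split ATP on paired nucleotide-binding domains, and most couple this to the movement of a substrate across a membrane. ABCB1 (P-glycoprotein), ABCC1 (MRP1) and ABCG2 (BCRP) are known for exporting anticancer drugs from tumour cells. Many A and G subfamily proteins move sterols and phospholipids, the D subfamily serves peroxisomes and lysosomes, and several B subfamily proteins sit in mitochondria. The E and F subfamilies have no membrane part and act on ribosomes and translation.

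Library totals ran from 28371119 to 49237321 expected counts. Levels are given as CPM (counts per 1000000) on the scaled library size of the experiment they belong to, and changes as log2 fold change ± standard error from edgeR's quasi-likelihood test with Benjamini-Hochberg adjustment over all genes tested. A gene was called at an adjusted p under 0.05. The 5 basal breast markers all reached 1 CPM in the MDA-MB-468 controls, and 4 and 5 of the 6 colorectal markers did so in the hairpin and guide controls of WiDr. The 6 pancreatic carcinoma markers, mostly simple-epithelial keratins, reached 1 CPM about as widely in the other lines (5 of 6 in PANC-1, 5 or 6 elsewhere), but their summed level was higher in PANC-1 (11400 to 14800 CPM in its controls against 4400 to 7010 in all other controls). Markers of blood, stromal and endothelial cells summed to at most 19.4 CPM in any control library. Ribosomal RNA took 4.61% to 9.6% of counts in the PANC-1 controls and 0.838% to 2.6% in the other PANC-1 libraries. It took 5.38% to 10.2% in WiDr hairpin 2 and 1.27% to 2.71% in the other WiDr hairpin libraries. In the MDA-MB-468 libraries (2.23% to 8.49%) and the guide libraries (3.78% to 10%) the arms overlapped.

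Of the 44 members, 34 had enough counts to be tested in at least 1 experiment and 23 in all 4. A further 10 were tested in none, namely ABCA6, ABCA8, ABCB5, ABCB11, ABCC9, ABCC12, ABCC13, ABCD2, ABCG5 and ABCG8. ABCB11, ABCG5 and ABCG8 are transporters of bile salts and dietary sterols, best known from liver and intestine. In bulk RNA, fewer cells that express a gene and less RNA of it per cell cannot be told apart. Nothing in the labels ties a library to another beyond its line and arm, so the spread between replicates may be partly technical.

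The 3 lines differed in most of the 33 members that could be tested among the controls. Between MDA-MB-468 and PANC-1, 8 members were higher and 14 lower in MDA-MB-468, where 72.4% of all genes were called, 36% higher and 36.5% lower. Between MDA-MB-468 and WiDr, 13 were higher and 16 lower in MDA-MB-468 (74.7% of all genes called, 38% higher and 36.8% lower). Between PANC-1 and WiDr, 16 were higher and 12 lower in PANC-1 (75.1% of all genes called, 38.6% higher and 36.5% lower). Each line was 1 culture lineage with its own library set, so line and any batch tied to it cannot be told apart.

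Per kilobase of the longest protein-coding transcript, ABCC3 (MRP3, an exporter of bile salts and glucuronides) led in WiDr at 113 ± 3.23 CPM per kilobase (SD, n = 3). ABCC1 led in PANC-1 at 77.4 ± 20.7 and ABCF1, a translation factor, in MDA-MB-468 at 74.9 ± 5.26. ABCE1, the ribosome recycling factor, was among the 3 highest members in every line, at 44.9 ± 7.09, 45.9 ± 1.88 and 71.1 ± 4.08 CPM per kilobase in MDA-MB-468, in PANC-1 and in the WiDr hairpin controls. The other members of these top 3 were ABCD3 in MDA-MB-468 (44.8 ± 7.24), ABCF1 in PANC-1 (56.9 ± 3.08) and ABCF2 in WiDr (47.1 ± 0.717). In MDA-MB-468 the levels of ABCE1 and ABCD3 differed by less than their spread. The longest length was taken in place of the median after the values had been seen. With the median, the leading gene of each line was the same, but ABCC3 ranked 2 and ABCE1 4 in PANC-1.

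**Figure D1:**
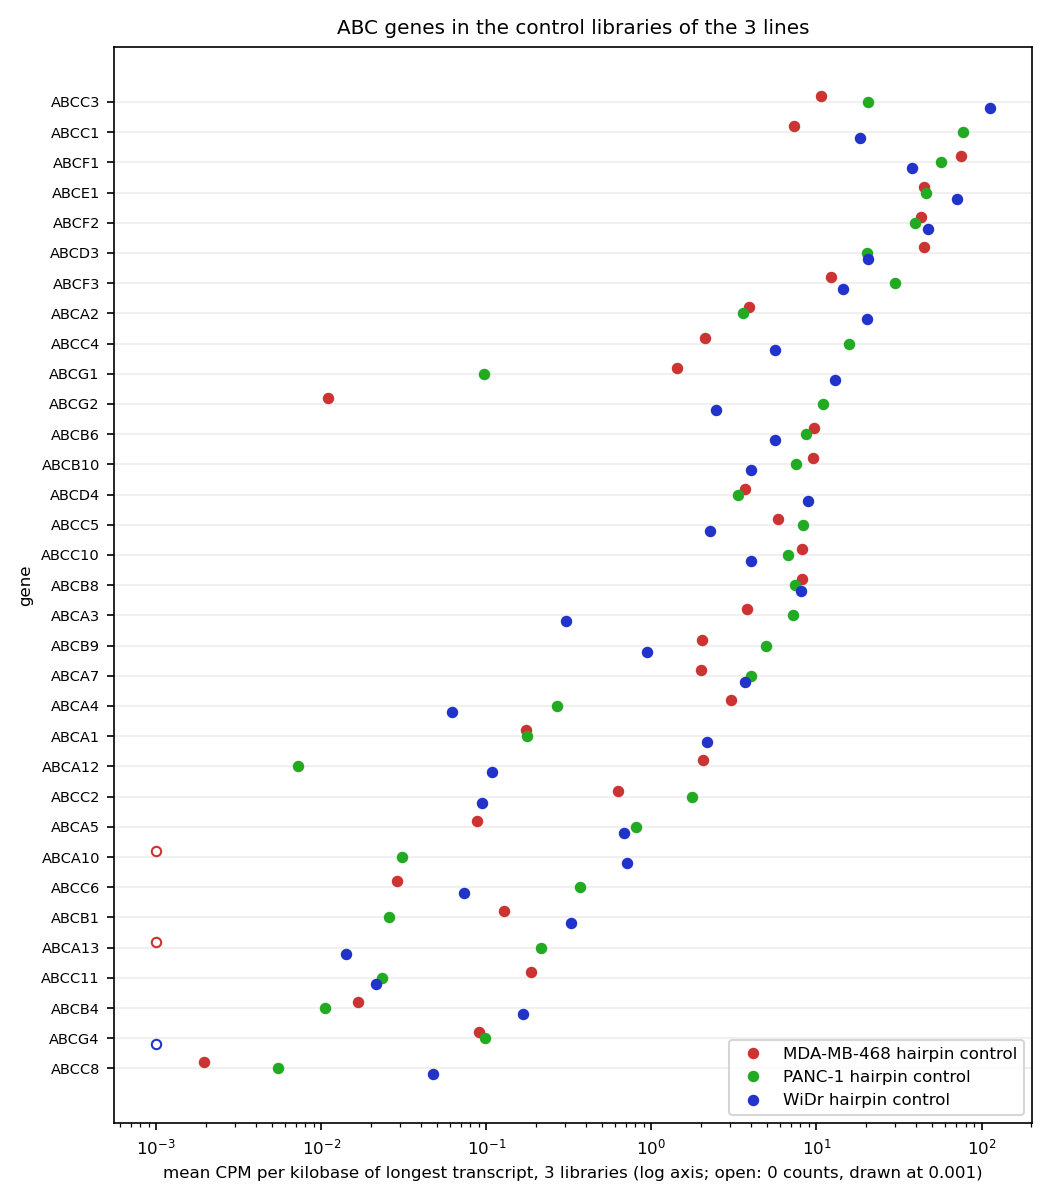
Mean level of the 33 tested ABC genes in the hairpin controls of the 3 lines, in CPM per kilobase of the longest transcript on a log axis, each point the mean of 3 libraries. ABCC3 and ABCC1 take the highest points, in WiDr and PANC-1, and ABCG2 lies far to the left in MDA-MB-468 alone.

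The known drug exporters were spread unevenly over the lines. ABCG2 read 51.5, 49.5 and 45.4 CPM in the 3 PANC-1 controls, 11.7, 10.2 and 11.2 in the WiDr hairpin controls, and 0, 0.085 and 0.0628 in the MDA-MB-468 controls. The 3 lines did not overlap, and the PANC-1 level was 2.14 ± 0.14 above that of WiDr on the log2 scale (adjusted p = 4.05e-08). ABCC1 read 666, 410 and 455 CPM in PANC-1, 123, 122 and 119 in WiDr, and 37.1, 60.9 and 46.6 in MDA-MB-468. It was again highest in PANC-1 and lowest in MDA-MB-468, with no overlap, and PANC-1 exceeded WiDr by 2.07 ± 0.19 (adjusted p = 1.12e-06). ABCB1 was low everywhere, at 0.611 ± 0.444 CPM in MDA-MB-468, 0.123 ± 0.0969 in PANC-1 and 1.55 ± 0.0781 in the WiDr hairpin controls (SD, n = 3). The WiDr excess over MDA-MB-468 for ABCB1 (log2 difference of MDA-MB-468 to WiDr -1.33 ± 0.42, adjusted p = 0.0134) was not past the threshold without MDA-MB-468 control replicate 3 (adjusted p = 0.0529).

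MDA-MB-468 stood above both other lines in 5 members and below both in 8. The share of all genes above or below both other lines was not counted for any line. Counts of this kind, here and for PANC-1 and WiDr, therefore show nothing particular to the family. ABCA12, the keratinocyte lipid transporter, read 11.8, 24.9 and 19.1 CPM there, against 0.992 ± 0.0348 in WiDr and 0.0654 ± 0.0732 in PANC-1. ABCA4, a flippase known from photoreceptors, was at 22.2 ± 2.11 CPM in MDA-MB-468, 1.96 ± 0.258 in PANC-1 and 0.451 ± 0.111 in WiDr. ABCD3, a peroxisomal transporter of fatty acids, and ABCF1 were the other genes with the clearest excess, at 159 ± 25.6 and 261 ± 18.3 CPM. On the low side were ABCG2, ABCA13 and ABCA10. ABCA13 and ABCA10 had 0 counts in all 3 MDA-MB-468 controls, and a count of 0 allows up to 3 counts per library.

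PANC-1 stood above both other lines in 10 members and below both in 3. ABCG2 and ABCC1, described above, were among the 4 clearest cases on the high side. The other 2 were ABCA13 and ABCC6. ABCA13, a very large A subfamily protein, was at 3.71 ± 0.755 CPM and ABCC6 at 2.11 ± 0.796, both low levels. ABCC6 has near-identical pseudogene copies, so its counts are uncertain, and this holds for ABCF2 as well. The members lower in PANC-1 than in both other lines were ABCA12, ABCB1 and ABCG1. ABCG1, which loads cholesterol onto lipoprotein particles, was at 0.338 ± 0.157 CPM in PANC-1, 4.96 ± 0.422 in MDA-MB-468 and 45 ± 0.951 in the WiDr hairpin controls.

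WiDr stood above both other lines in 8 members and below both in 9. ABCA1, the cholesterol and phospholipid exporter that builds high-density lipoprotein, read 23.7, 20.6 and 24.2 CPM in its hairpin controls, 1.26, 2.13 and 2.11 in MDA-MB-468 and 2.64, 1.58 and 1.36 in PANC-1. The WiDr libraries lay far above the others, and MDA-MB-468 and PANC-1 overlapped (log2 difference -0.03 ± 0.25, adjusted p = 0.911). With ABCG1, ABCA10 and ABCC3 it made up the 4 clearest cases on the high side. ABCA10 was at 4.51 ± 0.36 CPM in WiDr and 0.197 ± 0.0399 in PANC-1. ABCC3 was at 648 ± 18.5 CPM in WiDr, 116 ± 23.3 in PANC-1 and 61.3 ± 7.41 in MDA-MB-468. ABCA3, the phospholipid transporter of lung surfactant, was low in WiDr at 2.01 ± 0.168 CPM, against 47.6 ± 18.1 in PANC-1 and 25.2 ± 3.99 in MDA-MB-468. ABCC2 and ABCA4 followed on the low side, at 0.545 ± 0.2 and 0.451 ± 0.111 CPM.

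The guide and hairpin controls of WiDr, which share the line but not the vector or experiment, differed in 6 members, 4 higher and 2 lower in the guide control (26.4% of all genes called, 13.6% higher and 12.8% lower). ABCG1 was at 17.1 ± 0.824 CPM in the guide control and 45 ± 0.951 in the hairpin control (log2 difference -1.40 ± 0.13, adjusted p = 2.84e-05). ABCG2 went the other way, from 11.1 ± 0.758 in the hairpin control to 22.9 ± 1.56 in the guide control (1.05 ± 0.14, adjusted p = 0.000255). The other 4 were ABCC4, ABCC8 and ABCA2, higher, and ABCF2, lower. This count was 12 without PANC-1 control replicate 1, 10 without MDA-MB-468 control replicate 1, and 3 without guide control replicate 1 or 2 or WiDr hairpin control replicate 2 or 3, since all 12 controls share 1 fit. ABCA2 (adjusted p = 0.0475) was no longer called without any 1 of the 6 WiDr control libraries, without MDA-MB-468 control replicate 3 or without PANC-1 control replicate 3, nor was ABCF2 without any 1 guide control or WiDr hairpin control replicate 2 or 3, and ABCC4 was lost without WiDr hairpin control replicate 3.

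**Figure D2:**
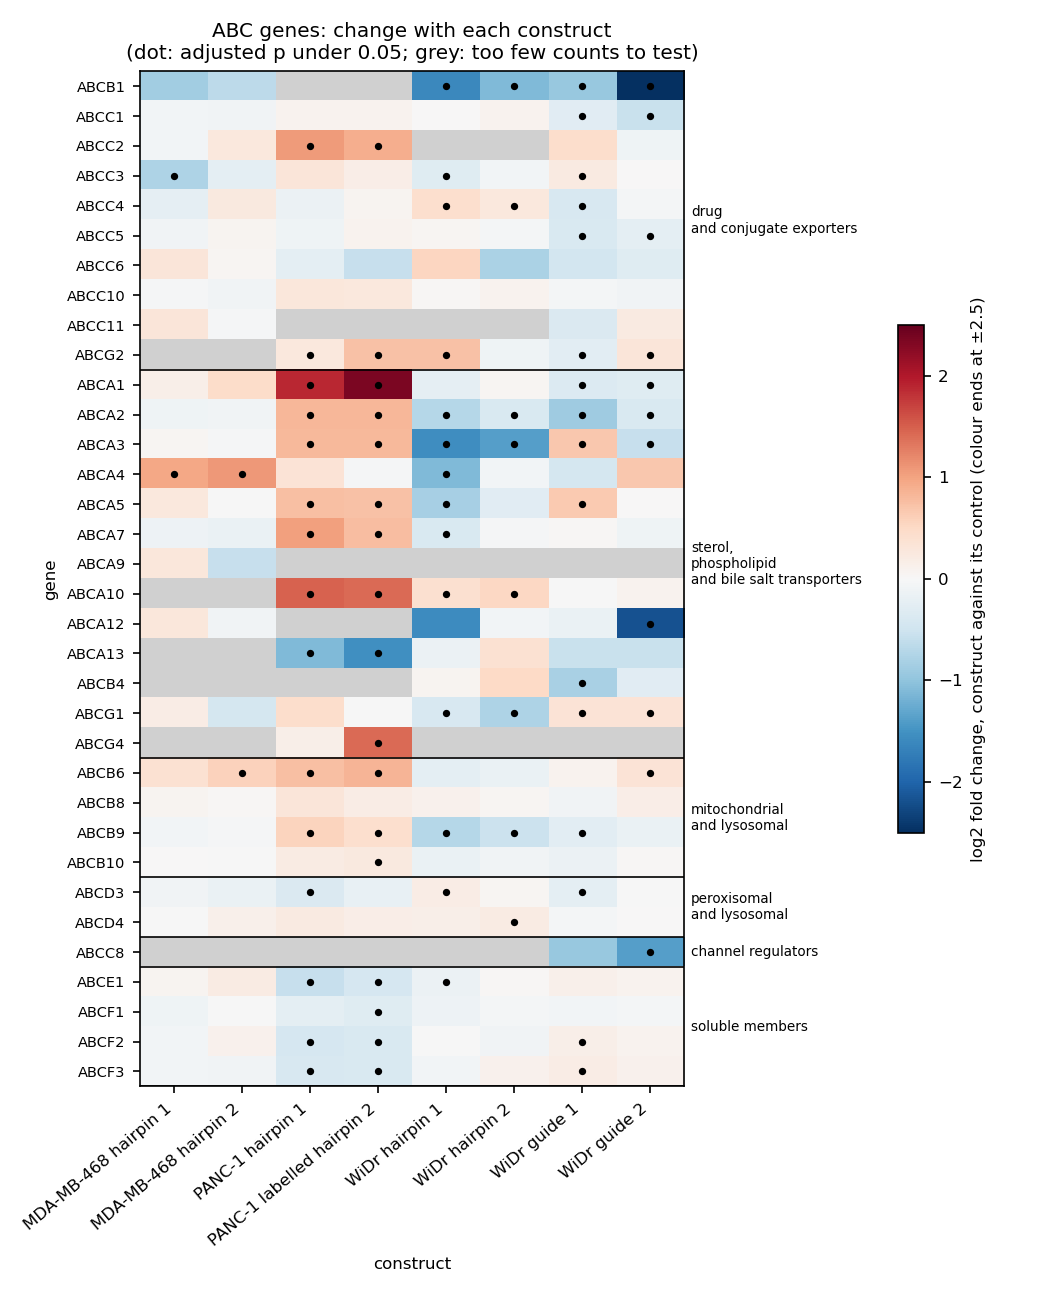
log2 fold change of the 34 tested ABC genes (rows, grouped by role) with each of the 8 constructs against its own control (columns), with a dot where the adjusted p was under 0.05 and grey where counts were too few. The PANC-1 columns are red over most of the A subfamily and blue over the soluble members, while ABCA2 and ABCB1 are blue with all 4 WiDr constructs.

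In MDA-MB-468 few members were called, and few of all genes. With each hairpin 2 of 28 tested members were called (7.14%), against 2.27% of all genes with hairpin 1 and 3.49% with hairpin 2. A member that was not called need not be unchanged. ABCA4 alone was called with both hairpins, 1 of 28 tested members, where 1.31% of all genes were called with both in 1 direction. It read 21, 24.9 and 22.4 CPM in the controls, 45.6, 45.3 and 42.4 with hairpin 1 and 48.1, 54.4 and 42.2 with hairpin 2. Every hairpin library lay above every control. ABCA4 rose by 0.96 ± 0.11 with hairpin 1 (adjusted p = 0.00327) and by 1.08 ± 0.11 with hairpin 2 (adjusted p = 0.00128). Of the 5 basal breast markers, KRT14 and KRT6B also rose with both hairpins, and the list summed to 3760 to 4580 CPM in the controls, 4710 to 5370 with hairpin 1 and 5060 to 5830 with hairpin 2. Its part in the ABCA4 change was not tested.

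With single hairpins, ABCC3 fell with hairpin 1 (-0.78 ± 0.11, adjusted p = 0.0109, 2.27% of all genes called) and ABCB6, a porphyrin-linked transporter, rose with hairpin 2 (0.58 ± 0.09, adjusted p = 0.00912, 3.49% of all genes called). ABCC3 was not called without control replicate 3 or hairpin 1 replicate 2 or 3 (adjusted p = 0.055, 0.0723 and 0.0689). ABCB6 was not called without control replicate 3 or hairpin 2 replicate 1 (0.0513 and 0.0534), and it was called with both hairpins without control replicate 1. The drug exporters ABCB1 and ABCC1 and the sterol exporters ABCA1 and ABCG1 were not called with either hairpin. ABCC1, for example, was at 49.5 ± 11.8 CPM in the controls, 46.9 ± 3.43 with hairpin 1 and 46.5 ± 8.05 with hairpin 2. No member was called between the 2 hairpins by edgeR (0.437% of all genes called), with 5 at an unadjusted p under 0.05 and 3 called by DESeq2.

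In PANC-1 most tested A subfamily transporters rose and most soluble members fell. Of 28 tested members, 10 rose and 4 fell with both hairpin 1 and labelled hairpin 2, where 12.7% of all genes rose and 11.1% fell with both (23.8% together). The median change of the tested members was 0.27 with hairpin 1 and 0.17 with labelled hairpin 2, against -0.015 and -0.005 over all genes. The 2 arms share their controls. The 14 members called with both were ABCA1, ABCA2, ABCA3, ABCA5, ABCA7, ABCA10, ABCB6, ABCB9, ABCC2 and ABCG2, higher, and ABCA13, ABCE1, ABCF2 and ABCF3, lower. The A subfamily members that rose had longest transcripts of 6362 to 10494 bases. Those of the soluble members that fell had 2624 to 3921 bases. ABCB6 (3045 bases), which rose, and ABCA13 (17184 bases), which fell, went the other way. The part of transcript length in this split was not tested.

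Cell type markers moved in the same PANC-1 arms. Of the 6 pancreatic carcinoma markers, 5 were tested, VIM rose (0.69 and 0.49) and KRT8 (-0.61 and -0.89) and KRT18 (-0.58 and -0.89) fell with both. The list summed to 11300 to 15100 CPM in the controls, 12200 to 14500 with hairpin 1 and 10700 to 11500 with labelled hairpin 2. Of the 6 colorectal markers, 3 were tested, CDH17 rose (3.83 and 3.75) and CDX2 fell (-0.94 and -1.13), and the list summed to 11.7 to 15.9, 10.2 to 11.8 and 9.33 to 9.97 CPM. CDH17 itself was at 0.197 ± 0.0154 CPM in the controls, 2.84 ± 0.476 with hairpin 1 and 2.7 ± 0.334 with labelled hairpin 2. The 3 markers of other cells summed to 9.45 to 19.3, 38.6 to 42.3 and 14.3 to 17.7 CPM, with COL1A1 called with hairpin 1 (1.56) and not with labelled hairpin 2 (0.25). PTPRC, the blood cell marker, averaged at most 0.0534 CPM in any PANC-1 arm. The part of these shifts in the transporter changes was not tested.

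Control replicate 1 lay apart from the other 2 PANC-1 controls in several of these genes, toward the hairpin arms in ABCA2, ABCA3, ABCA5, ABCA7 and ABCC2. Without it, 16 members were called with both arms. The count was 8 without control replicate 2, 7 without control replicate 3, 8 without hairpin 1 replicate 2 or labelled hairpin 2 replicate 1, and 9 without hairpin 1 replicate 3 or labelled hairpin 2 replicate 2 or 3. In all, 7 members were called with both whichever library was left out, namely ABCA1, ABCA13, ABCB6, ABCB9, ABCC2, ABCE1 and ABCF2. The higher ribosomal RNA share of the controls moves with all these results. With the ribosomal RNA genes removed, the same 14 members were called. That step leaves the counts of every other gene as they were. It therefore cannot decide whether library differences that go with the ribosomal RNA share had a part.

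ABCA1 changed most. It read 2.62, 1.61 and 1.39 CPM in the PANC-1 controls, 4.77, 7.75 and 8.48 with hairpin 1 and 8.67, 9.82 and 10.3 with labelled hairpin 2. All 6 hairpin libraries lay above the controls. ABCA1 rose by 1.89 ± 0.27 (adjusted p = 0.000942) and 2.35 ± 0.27 (adjusted p = 0.000255), still below its level in the WiDr controls.

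ABCA13 was the A subfamily exception. It read 4.54, 3.32 and 3.37 CPM in the controls, 1.38, 2.24 and 1.6 with hairpin 1 and 1.4, 1.3 and 1.18 with labelled hairpin 2. The arms did not overlap the controls, and the gene fell by 1.11 ± 0.21 (adjusted p = 0.00402) and 1.53 ± 0.21 (adjusted p = 0.00078). ABCA10 rose from 6, 8 and 7 counts in the controls to between 12 and 27 in the hairpin libraries (1.47 ± 0.40 and 1.42 ± 0.40, adjusted p = 0.0207 and 0.0235). It is a weakly expressed gene in the chromosome 17 cluster of A subfamily genes, whose similar sequences could share reads, and its adjusted p reached 0.0838 with 1 library left out.

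ABCA7, a phospholipid transporter studied in the brain, read 38.5, 18.6 and 25.1 CPM in the controls, 48.5, 63.5 and 55.5 with hairpin 1 and 51.6, 48.6 and 41 with labelled hairpin 2. The arms lay above all controls, though close to control replicate 1. The change was 1.02 ± 0.23 (adjusted p = 0.0103) and 0.78 ± 0.23 (adjusted p = 0.0304). ABCA2, a lysosomal lipid transporter first known from oligodendrocytes, read 41.6, 20.7 and 26 CPM in the controls, 40.4, 58.8 and 58.1 with hairpin 1 and 58.1, 51.2 and 46.9 with labelled hairpin 2. Hairpin 1 replicate 1 lay just below control replicate 1, so these arms overlapped. The change was 0.83 ± 0.25 and 0.82 ± 0.25 (adjusted p = 0.0305 and 0.03), and 1.15 and 1.14 without control replicate 1.

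ABCA3 showed the same layout, with 67.6, 35 and 41.1 CPM in the controls, 67.4, 95.8 and 89 with hairpin 1 and 90.3, 86.2 and 76 with labelled hairpin 2. Control replicate 1 again touched the lowest hairpin 1 library, and the change was 0.81 ± 0.23 with each arm (adjusted p = 0.027 and 0.0249). ABCA5, a lysosomal member, went from 6.71 ± 2.21 CPM to 11.3 ± 1.66 and 11.2 ± 0.808 (SD, n = 3; adjusted p = 0.0248 and 0.0266). With single libraries other than control replicate 1 left out, ABCA2, ABCA3 and ABCA5 lost their calls (highest adjusted p 0.102, 0.0948 and 0.0921), and so did ABCA7 with labelled hairpin 2 (0.101).

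ABCA1, ABCA2 and ABCA3 were among 6 A subfamily members called higher with both arms in PANC-1. ABCA5, ABCA7 and ABCA10 were the others and are not printed. ABCA1 kept its calls whichever library was left out, and ABCA2 and ABCA3 did not. The sequence of ABCA1, ABCA2 and ABCA3 before the RefSeq transcription start is shown on the gene's strand, 5′ to 3′, from the RefSeq table for GRCh38.p14. Bases that GENCODE 29 places inside a transcript are left out, which removes 82 bases next to the start for ABCA1 and 18 for ABCA3. Capitals mark matches on either strand to GGGCGG (a GC box core), CACGTG (an E-box) or TGACNNNGC (an antioxidant response element core). CCAAT was searched as well and had no match in them. ABCA1 lies at chr9:104928238-104928405 on the minus strand, ABCA2 at chr9:137028923-137029172 on the minus strand and ABCA3 at chr16:2340747-2340978 on the minus strand.
ABCA1: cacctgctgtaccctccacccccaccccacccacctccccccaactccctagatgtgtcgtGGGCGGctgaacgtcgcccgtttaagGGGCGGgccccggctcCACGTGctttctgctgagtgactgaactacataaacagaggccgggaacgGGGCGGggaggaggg
ABCA2: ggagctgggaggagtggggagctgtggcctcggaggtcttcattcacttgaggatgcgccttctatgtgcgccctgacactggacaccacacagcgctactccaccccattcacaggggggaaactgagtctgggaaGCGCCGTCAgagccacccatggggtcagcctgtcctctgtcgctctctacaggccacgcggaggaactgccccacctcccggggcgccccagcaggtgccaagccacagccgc
ABCA3: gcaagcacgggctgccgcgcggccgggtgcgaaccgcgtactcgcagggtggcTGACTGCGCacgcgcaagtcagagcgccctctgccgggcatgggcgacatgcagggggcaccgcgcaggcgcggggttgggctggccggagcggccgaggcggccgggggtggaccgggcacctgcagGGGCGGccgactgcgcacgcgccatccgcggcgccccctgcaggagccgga

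Over 250 bases before the start, searched on both strands, 35 of the 44 members matched the RefSeq table with 53 starts. GGGCGG stood in 47.2% of these and in 42.6% of all 35116 promoters of the table, CCAAT in 20.8% and 32%, CACGTG in 17% and 6.34%, and TGACNNNGC in 17% and 10.9%. A gene with several starts counts once for each start, and no difference between these shares was tested. A loose form of the direct repeat bound by liver X receptors (DR4) stood in 1.89% and 0.53%. ABCA1 was the member that held it, 69 bases before the RefSeq start at chr9:104928209-104928224, on the strand opposite to the gene. These bases lie in the stretch next to the start that GENCODE 29 places inside a transcript and that is left out of the sequence printed for ABCA1.
ABCA1 repeat: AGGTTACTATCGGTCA
No motif here was tested for a part in the changes.

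The exporters ABCC2 (MRP2, known from the bile canaliculus) and ABCG2 rose in PANC-1. They were 2 of 8 tested drug and conjugate exporters (25%), close to the 23.8% of all genes called with both arms. ABCC2 read 13.4, 8.28 and 9.24 CPM in the controls, 16.4, 24.2 and 24.6 with hairpin 1 and 19.9, 18.4 and 19.7 with labelled hairpin 2. The arms lay above all controls, and the change was 1.07 ± 0.20 (adjusted p = 0.00401) and 0.90 ± 0.20 (adjusted p = 0.00867). ABCG2 read 51, 50.4 and 46.4 CPM, 56.7, 57.2 and 63.4 with hairpin 1 and 82.1, 78.2 and 85.3 with labelled hairpin 2. The increase was 0.26 ± 0.08 with hairpin 1 (adjusted p = 0.0399) and 0.73 ± 0.08 with labelled hairpin 2 (adjusted p = 0.000221). The first of these was lost without any 1 of 8 of the 9 libraries (highest adjusted p 0.168). ABCC1, at 515 ± 128 CPM in the controls, was not called (0.10 ± 0.17 with each arm). ABCB1 had at most 8 counts in a PANC-1 library and was not tested.

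ABCB6 and ABCB9 rose with little spread. ABCB6, which sits in mitochondrial and lysosomal membranes, read 25.9, 27.2 and 26.7 CPM in the controls, 48.1, 44.4 and 42.4 with hairpin 1 and 49, 49 and 46.3 with labelled hairpin 2. No hairpin library came near the controls, and the change was 0.76 ± 0.08 (adjusted p = 0.000148) and 0.86 ± 0.08 (adjusted p = 6.87e-05). ABCB9, the lysosomal peptide transporter, went from 30.5 ± 0.138 CPM to 44.8 ± 2.32 and 41 ± 3.47 (0.56 ± 0.09 and 0.43 ± 0.09, adjusted p = 0.00148 and 0.00558).

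Among the soluble members, 3 of 4 fell with both arms, where 11.1% of all genes fell with both. ABCE1 went from 182 ± 4.33 CPM in the PANC-1 controls to 122 ± 6.2 and 136 ± 9.37 (-0.58 ± 0.08 and -0.42 ± 0.08, adjusted p = 0.000802 and 0.00409). ABCF2 went from 143 ± 2.73 to 107 ± 1.68 and 110 ± 1.04 CPM (adjusted p = 0.00165 and 0.0027), and ABCF3, a partner of the translation machinery, from 79.3 ± 7.6 to 60 ± 3.61 and 61.3 ± 2.98 (adjusted p = 0.0113 and 0.0153). For ABCF3 the highest adjusted p with 1 library left out was 0.0578. ABCF1 was called lower with labelled hairpin 2 (-0.30 ± 0.09, adjusted p = 0.0311) and missed the threshold with hairpin 1 (-0.25 ± 0.09, adjusted p = 0.0632). The first call was lost with no count filter (0.0888) and without control replicate 2 or 3 or any 1 labelled hairpin 2 library (0.0678 to 0.11), and DESeq2 called ABCF1 with both arms.

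By single arm, 10 members were called higher and 5 lower with hairpin 1 (30.2% of all genes called, 16.2% higher and 14% lower), and 12 higher and 5 lower with labelled hairpin 2 (33.4%, 16.7% in each direction). With single libraries left out these counts ran from 9 to 18 and from 8 to 19, lowest without hairpin 1 replicate 2 and without control replicate 3. With the labelled hairpin 2 libraries removed from the fit, 10 members were called with hairpin 1. No member was called between the 2 arms by edgeR (0.106% of all genes called), with 2 at an unadjusted p under 0.05 and 1 called by DESeq2.

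**Figure D3:**
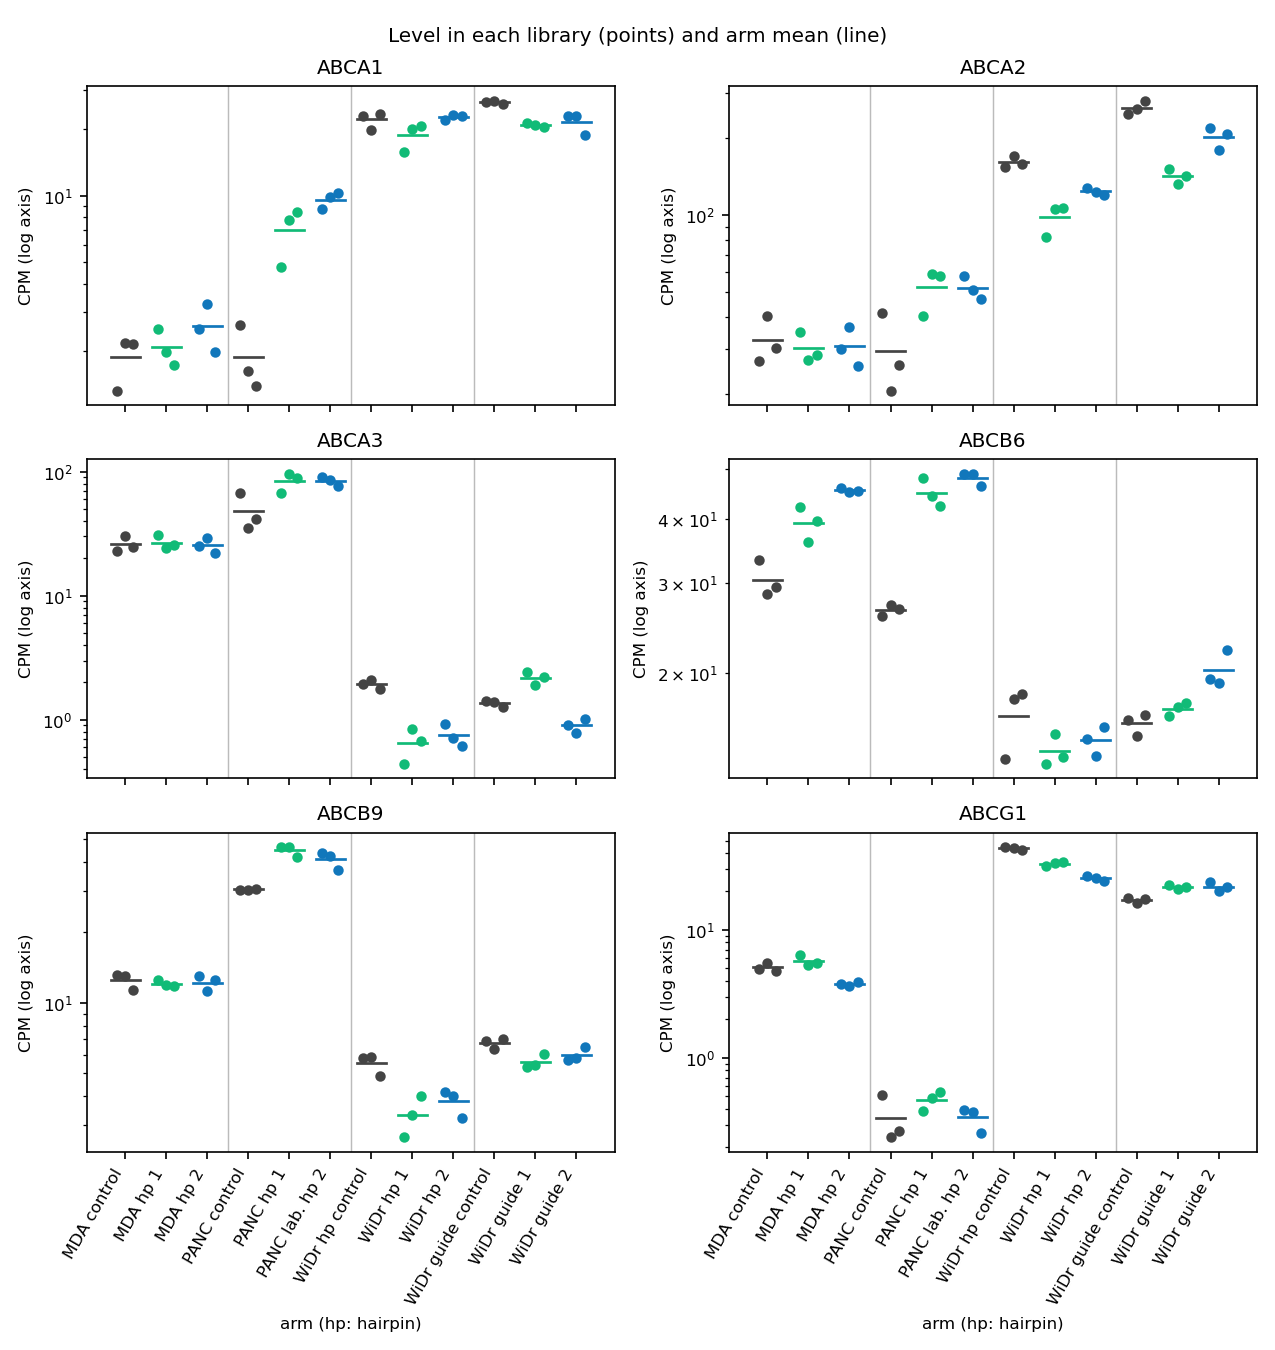
CPM in every library (points, log axis) and arm mean (line) of ABCA1, ABCA2, ABCA3, ABCB6, ABCB9 and ABCG1 over the 12 arms, with each experiment on its own scale. ABCA1 goes from a mean of 1.87 CPM in the PANC-1 controls to 7 and 9.61 and lies between 18.8 and 26.5 in the WiDr arms, and ABCG1 moves down from a WiDr hairpin control at 43.6 CPM and up from a guide control at 17.1 CPM.

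In WiDr with hairpins, the lipid transporters ABCA2, ABCA3 and ABCG1 fell, 3 of 11 tested members of their group, and ABCA10 of that group rose. Members were called with both hairpins about as often as all genes, at 24.1% against 25.2%. Of 29 tested members, 2 rose (ABCA10 and ABCC4) and 5 fell (ABCA2, ABCA3, ABCB1, ABCB9 and ABCG1) with both hairpins, where 12.3% of all genes rose and 12.9% fell with both (25.2% together). By single hairpin, 4 were called higher and 10 lower with hairpin 1 (48% of all genes called, 24.1% higher and 23.9% lower) and 3 higher and 5 lower with hairpin 2 (44.7%, 22.2% higher and 22.5% lower). The median change of the tested members was -0.14 and -0.045, against 0.002 and -0.006 over all genes. With all 36 libraries in 1 fit, 3 of the 7 were called with both, and ABCA2, ABCA10, ABCB1 and ABCC4 were not. Of the 6 colorectal markers, LGALS4 and VIL1 rose with both hairpins. With hairpin 1 alone, CDX1 rose (0.97) and KRT20 (-0.65) and CDX2 (-0.54) fell, and CDH17 was not called with either. The list summed to 1150 to 1200 CPM in the controls, 1250 to 1340 with hairpin 1 and 1310 to 1320 with hairpin 2. Its part in these results was not tested.

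By the mean of both hairpins, ABCA3 changed most among called members that averaged at least 1 CPM over the 9 libraries, which leaves out ABCB1. It read 1.95, 2.1 and 1.78 CPM in the WiDr hairpin controls, 0.44, 0.835 and 0.677 with hairpin 1 and 0.915, 0.718 and 0.618 with hairpin 2, which is 12 to 35 counts per hairpin library. All hairpin libraries lay below the controls, and the gene fell by 1.56 ± 0.25 (adjusted p = 9.78e-05) and 1.37 ± 0.24 (adjusted p = 0.000303). ABCA2 read 154, 170 and 158 CPM in the controls, 82.1, 106 and 107 with hairpin 1 and 128, 123 and 120 with hairpin 2. The arms formed 3 separate levels, and the decrease was 0.71 ± 0.08 (adjusted p = 9.47e-06) and 0.38 ± 0.08 (adjusted p = 0.002).

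ABCG1 fell in the other order, more with hairpin 2. It read 44.3, 44 and 42.5 CPM in the controls, 31.6, 33.5 and 33.7 with hairpin 1 and 26.2, 25.6 and 24.3 with hairpin 2. The arms again did not overlap, and the gene fell by 0.40 ± 0.06 (adjusted p = 3.74e-05) and 0.78 ± 0.06 (adjusted p = 5.18e-08). The ribosomal RNA share is high in the hairpin 2 libraries alone, and its part in the differences between the hairpins was not tested.

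ABCB9 read 5.83, 5.88 and 4.86 CPM in the controls, 2.67, 3.34 and 3.99 with hairpin 1 and 4.18, 4 and 3.24 with hairpin 2. Its arms lay below the controls, by 0.71 ± 0.15 (adjusted p = 0.00126) and 0.53 ± 0.15 (adjusted p = 0.00989).

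Among the drug exporters in the WiDr hairpin experiment, ABCB1 fell from 46, 51 and 50 counts in the controls to 11, 12 and 26 with hairpin 1 and 27, 24 and 21 with hairpin 2. The change was -1.60 ± 0.29 (adjusted p = 0.000268) and -1.11 ± 0.27 (adjusted p = 0.00379). ABCB1 and its neighbour ABCB4 are close paralogs, and reads shared between them are uncertain. ABCC4 (MRP4, an exporter of cyclic nucleotides and prostanoids) read 32.9, 31.8 and 31.1 CPM in the controls, 40.3, 42.3 and 44.9 with hairpin 1 and 39.6, 37.6 and 38 with hairpin 2. Both arms lay above the controls, and ABCC4 rose with each (0.41 ± 0.06 and 0.26 ± 0.06, adjusted p = 3.92e-05 and 0.00221). ABCG2 rose with hairpin 1 alone, from 10.7 ± 0.738 to 17.7 ± 1.09 CPM (0.72 ± 0.09, adjusted p = 9.75e-06), and was at 9.97 ± 1.22 with hairpin 2. ABCC1 (118 ± 2.3 CPM in the controls) and ABCA1 (22.1 ± 1.91) were not called with either hairpin. ABCA10 read 4.6, 4.55 and 3.97 CPM in the controls, 4.69, 5.56 and 6.9 with hairpin 1 and 6.9, 5.31 and 6.8 with hairpin 2. The lowest hairpin 1 library lay just above the controls. ABCA10 rose by 0.40 ± 0.15 and 0.52 ± 0.15 (adjusted p = 0.0371 and 0.00916), and its call with hairpin 1 was lost without any 1 of the 3 controls or hairpin 1 replicate 2 or 3 (highest adjusted p 0.227).

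The 2 WiDr hairpins differed from each other in 11 members, 7 higher and 4 lower with hairpin 2 (42.4% of all genes called, 20.6% higher and 21.8% lower). ABCG2 was lower with hairpin 2 by 0.84 ± 0.09 on the log2 scale (log2 difference -0.84, adjusted p = 4.58e-06) and ABCG1 likewise (-0.38 ± 0.06, adjusted p = 0.000144), whereas ABCA2 was higher (0.33 ± 0.08, adjusted p = 0.00549).

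In WiDr with guides, the exporters ABCB1, ABCC1 and ABCC5 and the lipid transporters ABCA1 and ABCA2 fell, 3 of 10 and 2 of 11 tested members of their groups. Of 32 tested members, 5 fell (ABCA1, ABCA2, ABCB1, ABCC1 and ABCC5) and 1 rose (ABCG1) with both guides, where 6.26% of all genes fell and 8.48% rose with both (14.7% together). ABCA3 and ABCG2 were called in opposite directions with the 2 guides, as were 1.65% of all genes. By single guide, 6 were called higher and 10 lower with guide 1 (41.6% of all genes called, 21.4% higher and 20.3% lower) and 3 higher and 8 lower with guide 2 (25.5%, 14.1% higher and 11.3% lower). With all 36 libraries in 1 fit, ABCG1 alone was called with both. When the guides were taken from the second label field, no member was called with both by edgeR (4 at an unadjusted p under 0.05 with both). That field leaves guide 2 with 1 library, which is assumed to vary like the other groups, and DESeq2 was not run on it. The share of all genes called in that fit is not given, so its count shows nothing particular to the family. Of the 6 colorectal markers, KRT20 and LGALS4 rose with both guides, and the list summed to 629 to 643 CPM in the controls, 1070 to 1160 with guide 1 and 837 to 916 with guide 2. Its part in these results was not tested.

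ABCB1 fell with each guide. It read 2.23, 2.15 and 2.32 CPM in the guide controls (76, 68 and 71 counts), 1.09, 1.46 and 0.901 with guide 1 and 0.265, 0.332 and 0.204 with guide 2 (9, 11 and 7 counts). The 3 arms lay at separate levels, and the decrease was 0.94 ± 0.22 (adjusted p = 0.00244) and 3.05 ± 0.27 (adjusted p = 6.17e-07). ABCC1 read 159, 164 and 174 CPM, 144, 129 and 137 with guide 1 and 122, 109 and 109 with guide 2. It also stepped down by arm without overlap, by 0.28 ± 0.06 (adjusted p = 0.000967) and 0.55 ± 0.06 (adjusted p = 4.54e-06). ABCC5 (MRP5, an exporter of nucleotide analogs) read 17.1, 19.7 and 18.6 CPM, 14, 13.9 and 14.7 with guide 1 and 15.9, 15.1 and 15.6 with guide 2. Both arms lay below the controls, by 0.38 ± 0.07 (adjusted p = 0.000549) and 0.25 ± 0.07 (adjusted p = 0.0205). The guide 2 call was lost without guide control replicate 2 or 3 or guide 2 replicate 2 (adjusted p = 0.114, 0.0624 and 0.0617). An antisense gene overlaps ABCC5, and without a stated strand setting reads of the 2 cannot be told apart.

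ABCA2 read 248, 260 and 280 CPM in the guide controls, 151, 132 and 142 with guide 1 and 218, 180 and 208 with guide 2. As with the hairpins, the arms did not overlap, and the decrease was larger with construct 1, at 0.89 ± 0.07 (adjusted p = 1.67e-07) against 0.38 ± 0.07 (adjusted p = 0.00156). ABCA1 read 26.6, 26.9 and 26 CPM, 21.3, 20.9 and 20.5 with guide 1 and 22.8, 23 and 18.7 with guide 2. It fell by 0.34 ± 0.07 (adjusted p = 0.00147) and 0.30 ± 0.07 (adjusted p = 0.00765). ABCG1 rose from 17.8, 16.2 and 17.3 CPM to 22.5, 20.8 and 21.5 with guide 1 and 23.5, 20.3 and 21.7 with guide 2 (0.34 ± 0.07 and 0.35 ± 0.07, adjusted p = 0.00139 and 0.00224). Both arms lay above the controls and overlapped each other.

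ABCA3 was at 1.36 ± 0.0733 CPM in the controls, 2.18 ± 0.249 with guide 1 and 0.906 ± 0.118 with guide 2 (0.68 ± 0.19 and -0.58 ± 0.21, adjusted p = 0.00827 and 0.0486). The second of these was not called by DESeq2 (adjusted p = 0.0973) nor without any 1 library other than guide 2 replicate 3. ABCG2 was at 23 ± 1.61 CPM in the controls, 19.2 ± 0.15 with guide 1 and 28.4 ± 1.41 with guide 2 (-0.26 ± 0.07 and 0.30 ± 0.07, adjusted p = 0.00593 and 0.00333).

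The 2 guides differed from each other in 12 members, 6 higher and 6 lower with guide 2 (34.4% of all genes called, 17.4% higher and 17.1% lower). ABCB1 (-2.11 ± 0.29, adjusted p = 2.48e-05), ABCA12 (-2.01 ± 0.29, adjusted p = 4.57e-05) and ABCA3 (-1.26 ± 0.20, adjusted p = 9.86e-05) were lower with guide 2. ABCG2 (0.56 ± 0.07, adjusted p = 6.19e-06) and ABCA2 (0.51 ± 0.07, adjusted p = 5.64e-05) were higher. ABCA12 was low in WiDr, with 43 to 47 counts in the guide controls and 6 to 14 with guide 2.

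Hairpins and guides in WiDr were compared by the difference of their mean effects, each against its own control. That difference was called for 14 of 32 members, 8 higher and 6 lower with guides, where 41.6% of all genes were called (22% higher and 19.6% lower). ABCG1 differed most clearly (0.93 ± 0.08, adjusted p = 1.95e-09), falling with hairpins and rising with guides. On each experiment's own scale its 12 construct libraries lay between 20.3 and 33.7 CPM, above all guide controls (16.2 to 17.8) and below all hairpin controls (42.5 to 44.3). ABCC4 (-0.57 ± 0.07, adjusted p = 1.42e-06) and ABCC1 (-0.46 ± 0.07, adjusted p = 9.64e-06) were lower with guides, and ABCA3 higher (1.51 ± 0.26, adjusted p = 5.50e-05). ABCA2 and ABCB1 fell with all 4 WiDr constructs, and their differences missed the threshold (-0.10 ± 0.11, adjusted p = 0.496, and -0.64 ± 0.31, adjusted p = 0.103). The mean effects of hairpins and guides had the same sign in 13 of 29 members (44.8%) and in 51.8% of 14185 genes. The hairpin and guide experiments differ in vector and control libraries, which cannot be told apart from the kind of construct.

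**Figure D4:**
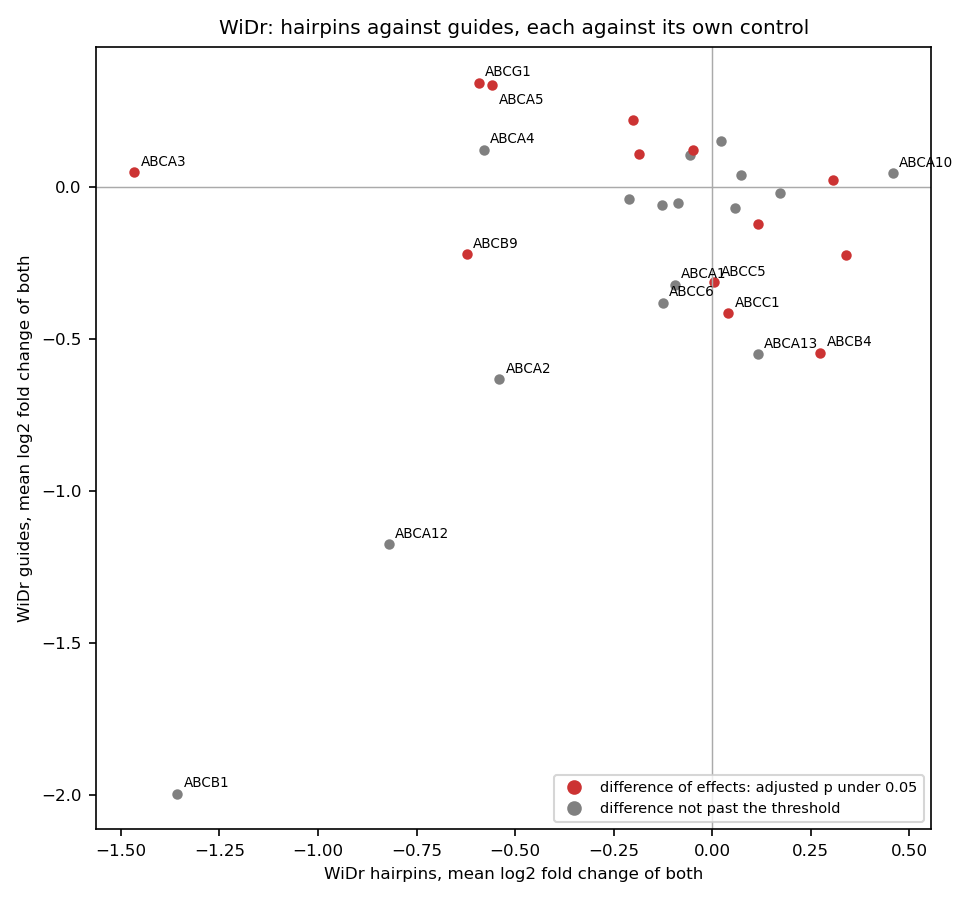
Mean log2 fold change of both guides (vertical axis) against that of both hairpins (horizontal axis) for the 29 ABC genes tested in both WiDr experiments, red where the difference of effects had an adjusted p under 0.05. ABCB1, ABCA12 and ABCA2 lie in the lower left, and ABCG1 and ABCA5 in the upper left.

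Between PANC-1 and WiDr hairpins the difference of mean effects was called for 18 of 32 members, 13 higher and 5 lower in PANC-1, where 37.2% of all genes were called (20.9% higher and 16.2% lower). ABCA2, ABCA3 and ABCB9 rose with both arms in PANC-1 and fell with both hairpins in WiDr. Their differences were 1.41 ± 0.25 (adjusted p = 0.000311), 2.32 ± 0.34 (adjusted p = 5.84e-05) and 1.16 ± 0.15 (adjusted p = 1.20e-05). ABCA1 (2.26 ± 0.26, adjusted p = 4.61e-06), ABCB6 (1.06 ± 0.12, adjusted p = 3.19e-06) and ABCC2 (2.21 ± 0.42, adjusted p = 0.000594) were also higher in PANC-1. ABCC2 had 18, 11 and 22 counts in the WiDr hairpin controls, so its difference rests on few reads in that line. ABCE1 (-0.39 ± 0.08, adjusted p = 0.00105) and ABCF2 (-0.30 ± 0.06, adjusted p = 0.00116) were lower.

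Genes that work with these transporters were taken from lists of pathway partners. Of 10 tested genes of sterol efflux and its regulators, 1 changed with both arms in PANC-1, which is 10% against 23.8% of all genes called with both. It was SREBF1, higher (the lipid synthesis regulator SREBP-1; 1.35 ± 0.11 and 0.68 ± 0.11, adjusted p = 3.57e-05 and 0.00149). In WiDr with hairpins, NPC2 rose and APOE fell with both (20% against 25.2% of all genes), and RXRA was called in opposite directions. APOE, an apolipoprotein that accepts exported cholesterol, fell by 1.46 ± 0.14 and 1.12 ± 0.14 with the hairpins (adjusted p = 6.97e-07 and 9.72e-06). With guides it was the 1 gene of that list called with both (10% against 14.7%), lower by 0.79 ± 0.13 and 0.99 ± 0.13 (adjusted p = 0.000154 and 7.30e-05). In MDA-MB-468 no gene of this list was called with both hairpins by edgeR or DESeq2, nor at an unadjusted p under 0.05 with both in 1 direction, which left 0 of 10.

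The peptide loading genes moved together within each WiDr construct. TAP1 and TAP2, which carry peptides into the endoplasmic reticulum, and their partner TAPBP all fell with both hairpins (3 of 3, where 25.2% of all genes were called with both), TAP1 at -0.82 ± 0.08 with hairpin 1 and -2.37 ± 0.09 with hairpin 2 (adjusted p = 1.01e-06 and 1.40e-11). With guides all 3 were called higher with guide 1 and lower with guide 2, TAP1 at 0.42 ± 0.07 and -1.04 ± 0.08 (adjusted p = 0.000151 and 5.56e-08). In PANC-1, TAPBP alone was called with both arms, higher (0.78 ± 0.11 and 0.63 ± 0.11, adjusted p = 0.00104 and 0.00303). In MDA-MB-468, 0 of the 3 were called with both hairpins by edgeR or DESeq2, or passed an unadjusted p of 0.05 with both.

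Of 8 tested partners in ribosome recycling and initiation, 3 fell with both arms in PANC-1, 37.5% against 23.8% of all genes called with both and 11.1% called lower. These were EIF2S1, ETF1 and GSPT1, an initiation factor and the pair of termination factors, ETF1 by 0.49 ± 0.08 and 0.46 ± 0.08 (adjusted p = 0.00143 and 0.00197). In WiDr GSPT1 rose and PELO fell with both hairpins (25% against 25.2%), and ETF1 and HBS1L rose and EIF2AK4 fell with both guides (37.5% against 14.7%). Of 8 tested genes of peroxisome import and oxidation, CAT (catalase) rose and SCP2 fell with both arms in PANC-1 (25% against 23.8% of all genes), CAT by 1.42 ± 0.07 and 1.52 ± 0.07 (adjusted p = 3.38e-06 and 2.71e-06). In WiDr CAT and HSD17B4 rose with both hairpins (25% against 25.2%), and 0 of the 8 were called in 1 direction with both guides by edgeR or DESeq2, or at an unadjusted p under 0.05. In MDA-MB-468, edgeR called 0 of either list with both hairpins, against 1 of the ribosome partners by DESeq2 and at an unadjusted p under 0.05, and 0 peroxisome genes either way.

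Of 11 tested genes of mitochondrial iron-sulfur and heme metabolism, CPOX, PPOX and SLC25A37 rose with both arms in PANC-1, 27.3% against 23.8% of all genes. CPOX and PPOX make heme precursors and SLC25A37 imports iron, and SLC25A37 rose by 0.72 ± 0.10 and 0.92 ± 0.10 (adjusted p = 0.000627 and 0.000144). With both WiDr hairpins, with both guides and with both MDA-MB-468 hairpins, 0 were called by edgeR or DESeq2, with 3, 1 and 0 at an unadjusted p under 0.05. Of the xenobiotic sensors and conjugation enzymes, AHR and SULT2B1 rose and KEAP1 and SULT1A1 fell with both arms in PANC-1, 4 of 12 tested (33.3% against 23.8% of all genes). In WiDr, CYP3A5, GSTA4 and UGT1A10 rose and CYP1A1 and CYP1B1 fell with both hairpins (5 of 15 tested, 33.3% against 25.2%), and AHR, NFE2L2 and SULT2B1 rose with both guides (3 of 14, 21.4% against 14.7%). In MDA-MB-468, CYP1A1 was called in opposite directions with the 2 hairpins, and 0 genes in 1 direction with both by edgeR, with 2 at an unadjusted p under 0.05 and 2 called by DESeq2.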

How the data were processed

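RNA selected for poly-A tails was read from 36 libraries. The deposited table gives expected counts for each gene, made per the submitters' processing notes with RSEM 1.2.15 and Bowtie2 2.1.0 against hg38. The gene models and strand setting were not given in the sources used here. Values were rounded to whole numbers. A robust edgeR 4.0.16 quasi-likelihood fit (R 4.3.3, TMM factors, genes kept by filterByExpr) was made for each experiment and for the 12 controls, with Benjamini-Hochberg adjustment over all genes tested. The standard error is the log2 fold change divided by the square root of its F statistic. Differences of effects came from 1 fit over both experiments. The code was tested on simulated data.

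Library totals ran from 28371119 to 49237321. Coordinates and transcript lengths (the longest protein-coding transcript, taken in place of the median after the values had been seen) came from GENCODE 29 and promoters from RefSeq (GRCh38.p14). Members, roles, pathway lists and marker lists were chosen with earlier results of these data known. The text names every member called with both constructs of an experiment and gives library values for up to 6 of them above 1 CPM, the clearest members per control line, the 3 highest per kilobase in each control, and ABCB1, ABCC1, ABCG2, ABCA1 and ABCG1. Other members are named after their values were seen.

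Alternatives were DESeq2 1.42.0, RLE scaling, no count filter, removal of ribosomal RNA genes, the replicate number as a block, guides from the second label field, all 36 libraries in 1 fit, each library left out in turn and, chosen after seeing the data, PANC-1 hairpin 1 and control libraries alone. The targeted gene, 2 of the 46 symbols that met the rule and some genes of the pathway lists are not reported here. They stayed in every fit and adjustment and enter no count of members or list genes.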

Additional observations from a re-analysis of the deposited data

Results flagged for a closer look

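Members whose change differed between experiments by a test of the difference itself are listed with that difference on the log2 scale, at an adjusted p under 0.05 in edgeR's quasi-likelihood test. Between guides and hairpins in WiDr, the mean effect was higher with guides for ABCF2 0.16, ABCC3 0.29, ABCB9 0.40, ABCB6 0.41, ABCA5 0.89, ABCG1 0.93, ABCC2 1.35 and ABCA3 1.51. It was lower with guides for ABCB4 -0.82, ABCC4 -0.57, ABCC1 -0.46, ABCC5 -0.32, ABCG2 -0.29 and ABCD3 -0.24. The differences for ABCB4, ABCB9 and ABCC2 were the weakest, with adjusted p = 0.049, 0.0447 and 0.0399. ABCB4 had 18, 28 and 22 counts in the WiDr hairpin controls, and reads shared with ABCB1 are uncertain. Results for the ABCB4 difference under other settings are not given here. ABCB9 and ABCC2 were not called by DESeq2 (adjusted p = 0.0528 and 0.0592). By edgeR they were lost with no count filter (0.06 and 0.0593) and with all 36 libraries in 1 fit (0.0553 and 0.121). ABCG2 was not called without guide control replicate 3 or hairpin control replicate 2 (0.09 and 0.0965), and ABCB9 and ABCC2 were each lost without any 1 of 11 libraries.

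Between PANC-1 and WiDr hairpins, the mean effect was higher in PANC-1 for ABCB10 0.41, ABCC3 0.47, ABCA4 0.78, ABCG1 0.85, ABCA10 1.04, ABCB6 1.06, ABCA7 1.16, ABCB9 1.16, ABCA5 1.34, ABCA2 1.41, ABCC2 2.21, ABCA1 2.26 and ABCA3 2.32. It was lower in PANC-1 for ABCA13 -1.39, ABCE1 -0.39, ABCF3 -0.36, ABCD3 -0.34 and ABCF2 -0.30. The ABCA4 and ABCA10 differences were the weakest, with adjusted p = 0.0421 and 0.0324. ABCA4 was not called by DESeq2 (adjusted p = 0.0974). By edgeR it was lost with no count filter (0.0895) and with all 36 libraries in 1 fit (0.112). With 1 library left out, calls were lost for ABCA13 without WiDr hairpin control replicate 1 (adjusted p = 0.0513), ABCC3 without PANC-1 control replicate 2 (0.0511), and ABCG1 without PANC-1 control replicate 2 or 3 (0.0899 and 0.0724). ABCA4 and ABCA10 were lost without any 1 of 12 and of 6 libraries. Some differences rest on few reads in 1 line. The WiDr hairpin controls had 18, 11 and 22 counts of ABCC2 and 5, 8 and 10 of ABCA13. The PANC-1 controls had 20, 8 and 9 counts of ABCG1. No group held the 4 samples that a check for a single outlying sample needs.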

How the results depend on the processing

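With DESeq2, 2 members were called with both MDA-MB-468 hairpins (ABCB6 was added), 3 between those hairpins and 1 between the PANC-1 arms. With all 36 libraries in 1 fit, members called with both constructs numbered 2 in MDA-MB-468, 3 in WiDr with hairpins and 1 with guides. That fit called 4 with MDA-MB-468 hairpin 2, 4 with WiDr hairpin 2, 8 with guide 1 and 5 with guide 2. Between constructs it called 3 in MDA-MB-468, 1 in PANC-1 and 5 between the WiDr hairpins. It called 14 between the WiDr controls and 7 in the difference of guides and hairpins. The cause was not tested. For these alternative settings and for libraries left out, here and above, the share of all genes called is not given. Such counts therefore do not show whether members lost or gained calls more often than other genes.

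With guides from the second label field, edgeR called 5 members with guide 1, 0 with guide 2 (7 at an unadjusted p under 0.05), 0 with both (4 unadjusted) and 0 between guides (0 unadjusted), and DESeq2 was not run. Values that turned sign were those of guide 2 against guide 1 for ABCA12 (1.08), ABCA2 (-0.33), ABCA3 (0.65), ABCA5 (0.38), ABCB1 (0.40), ABCB6 (-0.11), ABCC1 (0.16), ABCC3 (0.14), ABCC4 (-0.21), ABCD3 (-0.18) and ABCG2 (-0.36), and those of ABCA3 with guide 2 (0.70), ABCG2 with guide 1 (0.10) and ABCG2 with guide 2 (-0.26).

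Same-numbered libraries did not deviate together in every pair (correlations of -0.217 to 0.636 in MDA-MB-468, -0.675 to 0.128 in PANC-1, -0.149 to 0.0688 and -0.0549 to 0.126 in WiDr). Pairs with different numbers ran from -0.621 to 0.555, -0.336 to 0.499, -0.113 to 0.135 and -0.13 to 0.0702 in the same order. With 3 libraries per arm, these overlapping ranges cannot decide whether the numbers pair libraries. The main fit used no pairing. With the replicate block, 7 members were called with both PANC-1 arms and 8 with labelled hairpin 2. With PANC-1 hairpin 1 and control libraries alone, 10 were called with hairpin 1.

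Leaving out 1 library gave 1 to 2 members called with both hairpins in MDA-MB-468, 7 to 16 in PANC-1, 6 to 8 in WiDr and 5 to 7 with guides. It gave 1 to 3 and 1 to 2 for MDA-MB-468 hairpins 1 and 2, 9 to 18 and 8 to 19 for the PANC-1 arms, 0 to 1 between those arms and 3 to 12 between the WiDr controls. RLE scaling changed no call of a member. Genes such as ABCB1 and ABCA10, with few counts per library, are limited by depth.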
